A study of Mus musculus with 4 samples.

Results

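The 6 genes described here encode chemokine receptors: Ccr1, Ccr2, Ccr7, Cx3cr1, Cxcr2 and Cxcr4. They were taken by symbol from the 31053 genes of the count files, and each symbol matched 1 gene. The choice was made with earlier results of these data known. The cells came from hearts of adult CSF1R-EGFP+ mice, 12 to 16 weeks old, in which the Csf1r promoter drives EGFP in cells of the mononuclear phagocyte line. Live EGFP+ Ly6G- cells were sorted and their RNA was counted by droplet single-cell sequencing, in which each captured molecule carries a unique molecular identifier (UMI). Baseline was 1 library of 3 pooled hearts with no surgery. Infarct was 3 libraries, each of 1 heart taken 7 days after ligation of the left coronary artery, and the myocardium remote from the infarct was cut away before digestion. All mice carried the same reporter and both groups went through the same sort. The sort limits both groups to cells with an active Csf1r promoter and leaves out most neutrophils, and the single pooled baseline library gives no spread between unoperated hearts. Surgery, infarction and the part of the heart that was digested cannot be told apart in a comparison of the groups.

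Chemokine receptors are receptors of the G protein-coupled class that couple mainly to the inhibitory Gi proteins and steer leukocytes along gradients of chemokines. Ccr2, the receptor of Ccl2, Ccl7 and Ccl12, carries classical Ly6C-high monocytes out of the bone marrow and into injured tissue. Cx3cr1, the receptor of the membrane-bound chemokine fractalkine (Cx3cl1), is high on patrolling monocytes and on many tissue macrophages, and in the heart Ccr2 is widely used to separate macrophages that derive from monocytes from those that renew locally. Ccr1 binds inflammatory chemokines such as Ccl3, Ccl5 and Ccl9. Cxcr4, the receptor of Cxcl12, holds leukocytes in the bone marrow. Ccr7 guides mature dendritic cells to lymph nodes along Ccl19 and Ccl21, and Cxcr2 guides neutrophils along Cxcl1 and Cxcl2.

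On the mm10 genome (GRCm38) Ccr1 (ENSMUSG00000025804) lay at chr9:123962124-123968692 on the reverse strand and Ccr2 (ENSMUSG00000049103) at chr9:124101950-124113557 on the forward strand, 133 kb apart. Cx3cr1 (ENSMUSG00000052336) lay on the same chromosome at chr9:119901616-120069879 on the reverse strand. The annotated span of Cx3cr1, 168 kb, takes in the neighbours Gorasp1, Csrnp1 and Xirp1 on the same strand, so that reads from the shared stretches could not be assigned to 1 gene by strand. Cxcr2 (ENSMUSG00000026180) lay at chr1:74153989-74161246 on the forward strand, Cxcr4 (ENSMUSG00000045382) at chr1:128588199-128592293 on the reverse strand and Ccr7 (ENSMUSG00000037944) at chr11:99144196-99155077 on the reverse strand.

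The promoter windows of the 3 chromosome 9 receptors are shown because their levels differed between the gated types described below. Each window runs 5′ to 3′ on the strand of its gene, from 250 bases before the RefSeq start to 50 after it, on GRCm38.p6, and capitals mark the letters GAGGAA, the core bound by PU.1, the myeloid lineage factor that also binds the Csf1r promoter.
Ccr1 promoter, chr9:123968643-123968942, reverse strand: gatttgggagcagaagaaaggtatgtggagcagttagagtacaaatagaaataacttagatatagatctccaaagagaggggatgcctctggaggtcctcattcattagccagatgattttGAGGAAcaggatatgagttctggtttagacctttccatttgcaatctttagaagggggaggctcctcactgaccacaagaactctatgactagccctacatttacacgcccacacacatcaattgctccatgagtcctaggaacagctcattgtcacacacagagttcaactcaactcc
Ccr2 promoter, chr9:124101933-124102232, forward strand: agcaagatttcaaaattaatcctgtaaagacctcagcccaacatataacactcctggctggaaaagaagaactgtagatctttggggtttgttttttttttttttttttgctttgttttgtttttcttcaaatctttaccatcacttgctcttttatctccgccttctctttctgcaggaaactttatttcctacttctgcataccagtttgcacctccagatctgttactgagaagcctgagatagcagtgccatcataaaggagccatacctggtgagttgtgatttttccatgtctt
Cx3cr1 promoter, chr9:120068247-120068546, reverse strand: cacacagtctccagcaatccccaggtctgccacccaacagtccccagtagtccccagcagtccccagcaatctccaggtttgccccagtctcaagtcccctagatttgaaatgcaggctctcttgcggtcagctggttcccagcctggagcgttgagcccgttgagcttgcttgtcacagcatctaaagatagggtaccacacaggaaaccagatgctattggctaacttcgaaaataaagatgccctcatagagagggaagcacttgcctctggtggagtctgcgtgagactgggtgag
GAGGAA, searched on both strands, was found in the Ccr1 window, 129 bases before the start, and in neither the Ccr2 nor the Cx3cr1 window. It occurred in 28.3% of 32851 RefSeq windows of the same length. Neither of the other motifs searched in the 3 windows was found: TTGCNNAA, bound by C/EBP factors and present in 10.8% of all windows, and the letters GAAA repeated after 2 bases, bound by interferon regulatory factors and present in 3.44%. An absent match says only that these letters were not in the window.

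The files held 10144 to 10804 cells per library and 71093963 UMIs in baseline against 88157753 to 97944428 in the infarct libraries. The median cell carried 6398.5 UMIs in baseline and 8469.5 to 8556.5 in infarct. Levels below are CPM, the summed UMIs of a gene in a group of cells, scaled by the group's total without mitochondrial genes. Intervals on single libraries are exact 95% Poisson or Clopper-Pearson binomial intervals and cover counting error only. Cells were placed in types by marker genes that include none of the 6 receptors, on counts thinned to 2000 UMIs a cell, and 34060 of 37723 cells of that depth fell in 1 gate. The names stand for cells that carry the gate's markers: resident macrophage for Lyve1, Cd163, Folr2 and Cbr2; reparative macrophage for Gpnmb, Spp1, Syngr1 and Fabp5; transitional macrophage for both C1q and classical monocyte genes; and other macrophage for C1q-positive cells of no narrower gate. Of 74 marker genes kept out of the gates, 74 were higher in their own gate than in the other gated cells and 69 were over 2-fold higher. The reparative gate was the weakest, with 1 of its 5 check markers, Trem2, over 2-fold. The composition differed between the groups: resident macrophages were 27.2% of cells in baseline and 1.09% ± 0.342 (SD, n = 3) in infarct, and reparative macrophages were 0.767% and 16.7% ± 1.69. Between 26 and 34 cell barcodes were shared by each pair of libraries.

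Which cells held each receptor was asked first in the infarct libraries, where 12 types had at least 20 cells in every heart. The cells of a type were summed per heart and compared with the sum of all other gated cells of the same heart (edgeR's quasi-likelihood test with the heart as a block, Benjamini-Hochberg adjustment over all genes, adjusted p below 0.01). Every receptor had at least 1 type in which it was higher, and 54 of 72 pairs of receptor and type passed, 17 higher and 37 lower. Over all genes and the same 12 comparisons, 19.6% of tests passed, 9.39% higher and 10.3% lower. The shares of all genes that passed in the same comparisons ran from 10.3% in transitional macrophages to 29.5% in classical monocytes. By type, the receptors passing were 6 of 6 in other macrophages (22.3% of all genes), 6 of 6 in reparative macrophages (21.5% of all genes), 6 of 6 in Saa3 Arg1 macrophages (25.9% of all genes), 5 of 6 in granulocyte-like cells (13.6% of all genes), 5 of 6 in resident macrophages (11% of all genes), 4 of 6 in classical monocytes (29.5% of all genes). They were 4 of 6 in mature dendritic cells (22.4% of all genes), 4 of 6 in non-classical monocytes (19.5% of all genes), 4 of 6 in transitional macrophages (10.3% of all genes), 4 of 6 in type 2 dendritic cells (24.9% of all genes), 3 of 6 in interferon-response macrophages (13% of all genes), 3 of 6 in proliferative macrophages (21.7% of all genes). In other macrophages the calls of Ccr7 and Cxcr2 as lower were lost when mature dendritic and granulocyte-like cells left the comparator. With macrophages and monocytes as the comparator their log2 differences were 0.0261 and 0.0389. Over all receptors, 57 pairs were unchanged with this comparator, 7 calls were lost, 1 was gained and 3 pairs turned sign. Ccr7 was also called lower in reparative macrophages (1.59 CPM), Saa3 Arg1 macrophages (1.37 CPM) and classical monocytes (1.47 CPM). There too the rest held the mature dendritic cells. The 12 comparisons are not independent, since each sets 1 type against all the others. Of the 54 calls, 22 held under every alternative setting in which they were tested. Some settings, such as an added marker in every gate, left some pairs untested.

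Ccr2 was highest in classical monocytes and in the C1q-positive cells that still carried monocyte genes. In classical monocytes it stood at 1889.6, 1684 and 1623 CPM in infarct replicates 1, 2 and 3, a mean of 1732 ± 139.6 CPM. The remaining gated cells had a mean of 504 CPM, a difference on the log2 scale of 1.84, SE 0.0918, adjusted p 4.25e-07. Transitional macrophages carried 1758, 1261 and 1391 CPM (log2 difference 1.44, SE 0.0727, adjusted p 3.1e-19). The ranges of these 2 types overlapped, and the difference between them did not pass (log2 0.30, SE 0.218, adjusted p 0.458). Type 2 dendritic cells, marked by Cd209a and Flt3, came next at 803, 659 and 851 CPM, below transitional macrophages in every heart (log2 0.84, SE 0.225, adjusted p 0.00447; 19.4% of 10364 genes passed in that comparison). Other macrophages, the largest class, held 786, 496 and 555 CPM and were also higher than the rest (log2 difference 0.36, SE 0.056, adjusted p 0.00329). Proliferative macrophages held 557, 404 and 378 CPM and interferon-response macrophages 504, 352 and 413 CPM of Ccr2. Both passed as lower than the rest, by less than 2-fold (log2 difference -0.38, adjusted p 0.000896 and -0.27, adjusted p 0.00074).

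At the low end, reparative macrophages held 281, 179 and 198 CPM of Ccr2 (log2 difference -1.49, SE 0.0425, adjusted p 5.31e-06). Their values lay below those of classical monocytes in every heart by a wide margin. Mature dendritic cells, marked by Fscn1 and Ccl22, held 16.3, 18.6 and 4.82 CPM (log2 difference -5.35, SE 0.291, adjusted p 1.22e-72). Some gates at the low end varied widely between hearts. Saa3 Arg1 macrophages stood at 542, 153 and 300.4 CPM and resident macrophages at 602, 177 and 233 CPM, in each case highest in replicate 1. Non-classical monocytes, at 704, 524 and 417 CPM, did not pass (log2 difference -0.16, adjusted p 0.292). Granulocyte-like cells ran from 10.7 to 304 CPM and passed as lower (log2 difference -2.39, adjusted p 1.72e-30).

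Ccr1 was highest in granulocyte-like cells, marked by S100a8, S100a9, Retnlg and Csf3r, at 940.0, 938 and 624 CPM (log2 difference 2.93, SE 0.164, adjusted p 1.83e-68). These were the 36, 33 and 61 cells of that kind that the Ly6G- sort had left in the 3 hearts. Saa3 Arg1 macrophages followed with 244, 268 and 269 CPM (log2 difference 1.64, SE 0.136, adjusted p 8e-11), a narrow range although the number of such cells ran from 56 to 747. The step from granulocyte-like cells to this gate passed (log2 1.48, SE 0.276, adjusted p 6.88e-05, with 18.9% of all genes). Classical monocytes, at 321, 249.9 and 180.0 CPM, and transitional macrophages, at 242, 173 and 127 CPM, were both higher than the rest (log2 difference 1.72, adjusted p 1.14e-05 and 1.10, adjusted p 5.79e-11). Saa3 Arg1 macrophages, classical monocytes and transitional macrophages followed each other in the order of Ccr1 and neither step passed (log2 -0.09, SE 0.226, adjusted p 0.768; log2 0.49, SE 0.234, adjusted p 0.21). Type 2 dendritic cells held 123, 147 and 176 CPM, above proliferative macrophages with 55.3, 50.8 and 106 CPM (log2 1.13, SE 0.281, adjusted p 0.00126; 32.3% of all genes). Reparative macrophages were among the lowest, at 71.6, 46.9 and 48.6 CPM, and mature dendritic cells held 1 UMI in the 3 hearts together. Other macrophages (86.9, 50.4 and 62.4 CPM), interferon-response macrophages (72.3, 58.4 and 51.1 CPM) and non-classical monocytes (70.4, 11.8 and 6.77 CPM) also passed as lower than the rest, and resident macrophages (205, 85.1 and 190.1 CPM) as higher, with a spread of over 2-fold between hearts.

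Cx3cr1 peaked in other cells than Ccr2 did. Other macrophages held 789.8, 808 and 863 CPM (mean 820.4 ± 38 CPM and 419 CPM in the rest, a log2 difference of 1.02, SE 0.0529, adjusted p 6.36e-05), and it was the only one of the 12 types in which Cx3cr1 passed as higher. Proliferative macrophages, at 768, 715 and 548 CPM, and interferon-response macrophages, at 672, 584 and 702 CPM, stood next and did not pass (log2 difference 0.02, adjusted p 0.923 and 0.17, adjusted p 0.0415). The step from other to proliferative macrophages did not pass either (log2 0.36, SE 0.18, adjusted p 0.109). Reparative macrophages were the most even between hearts, at 465, 472 and 465 CPM. Non-classical monocytes, the patrolling cells for which the receptor is best known, held 534, 462 and 519 CPM. Their range overlapped that of the resident macrophages at 391, 545 and 405 CPM. Cx3cr1 passed as lower than the rest in non-classical monocytes (log2 difference -0.47, adjusted p 6.23e-05), reparative (-0.47, adjusted p 0.000719) and resident macrophages (-0.67, adjusted p 2.04e-09). Cx3cr1 then fell in steps: transitional macrophages held 316, 366 and 429.7 CPM, classical monocytes 184, 155 and 284 CPM and Saa3 Arg1 macrophages 158, 72.2 and 115 CPM. Both steps passed (log2 0.81, SE 0.191, adjusted p 0.00412; log2 0.86, SE 0.196, adjusted p 0.000412), in comparisons in which 5.04% and 39.5% of all genes passed. Type 2 dendritic cells (67.1, 91.5 and 107 CPM) and mature dendritic cells (5.42, 0 and 9.65 CPM) were at the low end, with granulocyte-like cells (57, 21.3 and 40.0 CPM).

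Cxcr4 was carried by all 12 types, with no step in its order that passed. Granulocyte-like cells held 693, 490.1 and 539 CPM (log2 difference 0.80, SE 0.162, adjusted p 1.34e-05) and non-classical monocytes 400.2, 568 and 519 CPM (log2 difference 0.82, SE 0.105, adjusted p 1.63e-13). Their ranges overlapped and the step between them did not pass (adjusted p 1 by edgeR). Reparative macrophages, at 295, 320.4 and 286 CPM, and other macrophages, at 268, 318 and 256 CPM, were also higher than the rest (log2 difference 0.36, adjusted p 0.00446 and 0.30, adjusted p 0.00355). The lowest levels were in Saa3 Arg1 macrophages, at 98.6, 63.4 and 68.3 CPM, and type 2 dendritic cells, at 106, 125 and 110.0 CPM. Classical monocytes, which held the most Ccr2, varied over 2-fold in Cxcr4, from 119 to 249 CPM, and did not pass (log2 difference -0.49, adjusted p 0.0176). Proliferative (181, 181 and 132 CPM) and resident macrophages (90.4, 203 and 111 CPM) passed as lower than the rest. Interferon-response macrophages (199, 242 and 219.7 CPM), transitional macrophages (153, 275 and 225 CPM) and mature dendritic cells (206, 158 and 149.5 CPM) did not pass.

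Ccr7 and Cxcr2 were each held by 1 rare type. Ccr7 stood at 2674, 2713 and 2441 CPM in the 52, 31 and 23 mature dendritic cells, against 2.31 CPM in the other gated cells (log2 fold change 10.23, SE 0.222, adjusted p too small for the software to write). No Ccr7 UMI was counted in resident macrophages, transitional macrophages or non-classical monocytes of any infarct heart, which, with 3 counts as the limit for a count of 0, allows up to 11.1 CPM in the smallest of these sums. Cxcr2 stood at 1082, 948 and 644 CPM in granulocyte-like cells against 0.309 CPM in the rest (log2 fold change 11.10, SE 0.236, adjusted p likewise too small). No Cxcr2 UMI was counted in resident macrophages, non-classical monocytes or mature dendritic cells of the infarcts, which by the same limit allows up to 14.5 CPM in the smallest sum. The steps from mature to type 2 dendritic cells for Ccr7 (log2 8.83, SE 0.411, adjusted p 1.79e-16) and from granulocyte-like cells to classical monocytes for Cxcr2 (log2 9.19, SE 0.332, adjusted p 2.21e-18) were the largest of any receptor. In these comparisons 21.9% and 13.4% of all genes passed. B cells, too few in the infarcts for the test, held Ccr7 as well: 159 UMIs in the 73 B cells of baseline gave 547 CPM, and the 13, 4 and 19 B cells of the infarcts gave 148, 341 and 300.2 CPM.

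Of the 66 steps between neighbouring types in the 6 orders, 8 passed, a smaller share than the 23% of such tests that passed over all genes. Of these, 3 held under every setting in which they were tested: Ccr1 from granulocyte-like cells to Saa3 Arg1 macrophages, Ccr7 from mature to type 2 dendritic cells and Cxcr2 from granulocyte-like cells to classical monocytes. With an added marker required in every gate, some of the 66 steps could not be tested. One more step was Ccr2 from granulocyte-like cells to mature dendritic cells (log2 2.95, SE 0.689, adjusted p 0.00102; 19.4% of all genes). Without infarct replicate 3, 4 of the 66 steps passed. A step that did not pass does not show equal levels. The p-values rest on 3 hearts, and edgeR estimates the spread partly from all genes together. A small p-value can thus stand beside a wide range between hearts. Ccr2 in granulocyte-like cells was 143 ± 149 CPM, with adjusted p 1.72e-30 by edgeR.

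**Figure D1:**
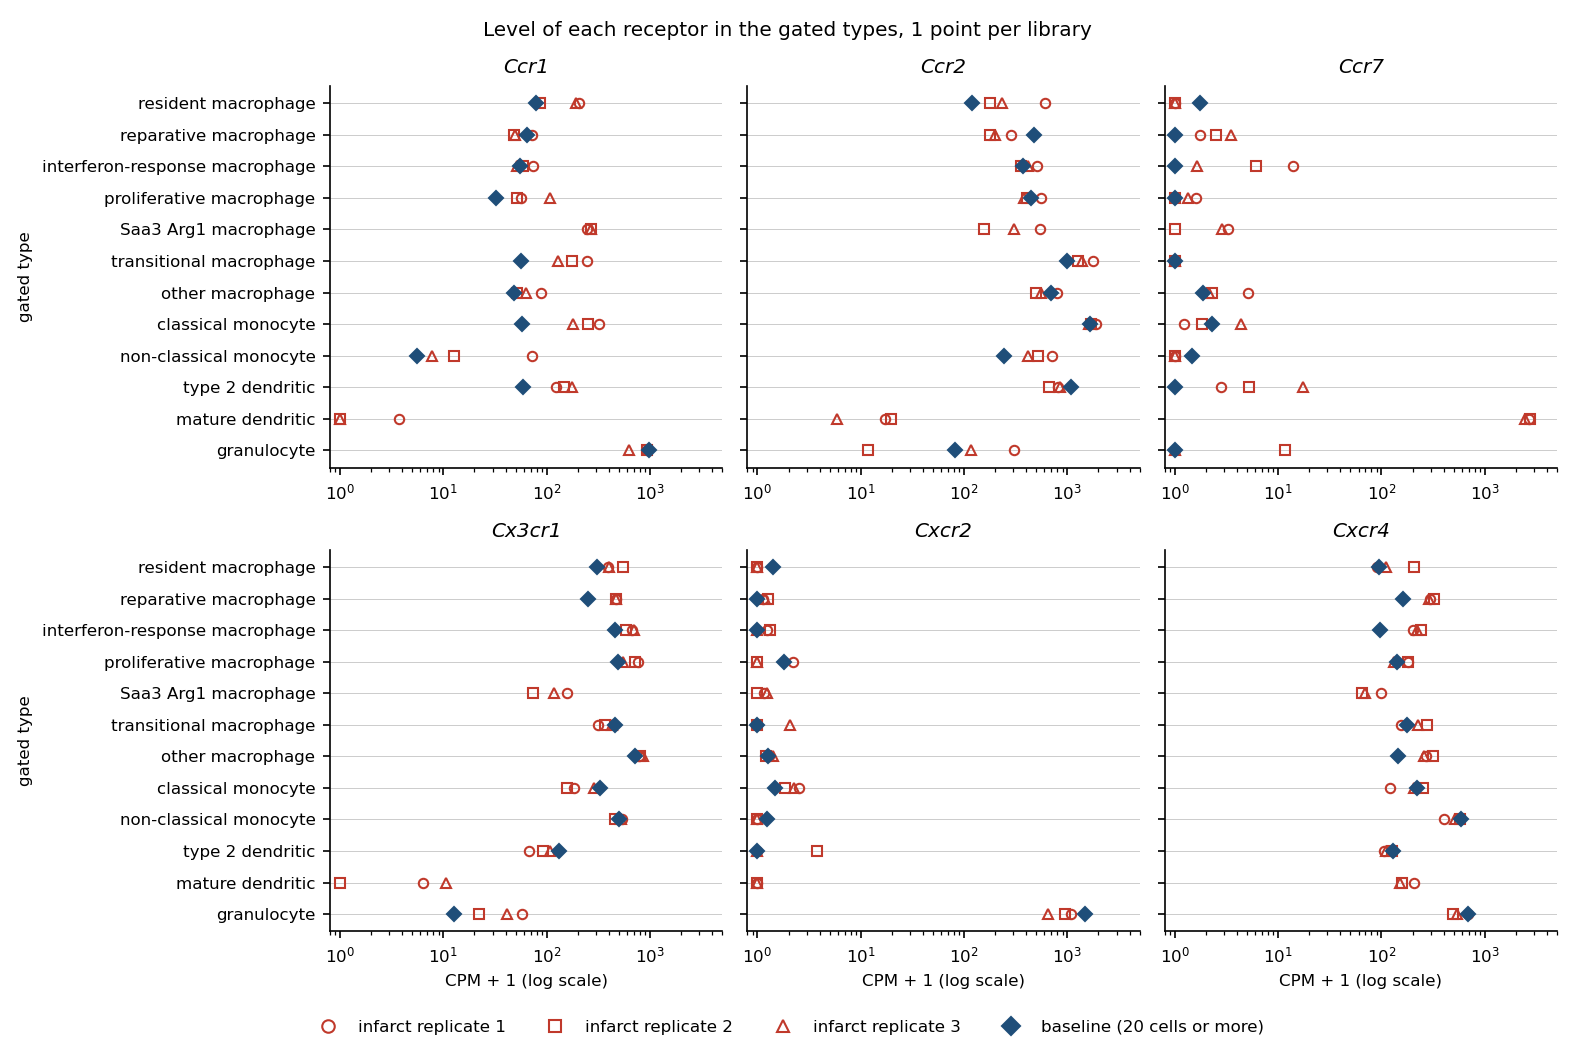
Level of each receptor (CPM of the summed cells plus 1, log axis) in the 12 marker-gated types, with 1 open marker for each infarct heart. A filled diamond marks the baseline library in types with at least 20 baseline cells. Ccr2 peaked in classical monocytes (1732 CPM), Cx3cr1 in other macrophages (820.4 CPM), and Ccr7 and Cxcr2 stood out in 1 type each.

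Levels per cell type and numbers of cells together set which cells held most of a receptor's UMIs. In infarct, macrophages of all gates held 82.5%, 82.9% and 87.4% of the Ccr2 UMIs of gated cells in replicates 1, 2 and 3, and classical monocytes held 15.4%, 15.3% and 10.4%. In baseline the shares were 63% and 31.2%. Although classical monocytes had the highest level, most Ccr2 transcripts were thus in macrophages in all 4 libraries. Cx3cr1 was held almost wholly by macrophages, 97.6%, 98.6% and 98% in infarct and 84.8% in baseline. Of the Cx3cr1 UMIs of all gated cells, the resident share was 20.3% in baseline and 0.704%, 0.681% and 0.96% in infarct, and the reparative share was 1.0% and 16%, 16.5% and 15.2%. For Cxcr4 the shares of monocytes and macrophages differed between the groups: non-classical monocytes held 24.9% of its UMIs in baseline and 0.591%, 0.76% and 1.23% in infarct, while all macrophages held 58% and 94.8%, 95% and 94.7%. For Ccr1, resident macrophages were the largest holder in baseline, at 44.3%, against 1.9%, 1.09% and 3.75% in infarct. Other macrophages held 33.1% in baseline and were the largest holder in infarct, at 39%, 44.9% and 43.7%. The next in infarct were reparative macrophages with 12.7%, 16.8% and 13.2%, classical monocytes with 16.5%, 16.6% and 6.96% and Saa3 Arg1 macrophages with 17.1%, 2.81% and 18.8%. Granulocyte-like cells held 87.1% of Cxcr2 UMIs in baseline and 82%, 80.2% and 83.2% in infarct. For Ccr7, B cells held 47.7% and mature dendritic cells 36% in baseline, and 0.646%, 1.25% and 4.71% and 79.7%, 80.7% and 76.9% in infarct. These shares were not tested between the groups, since baseline was 1 library.

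**Figure D2:**
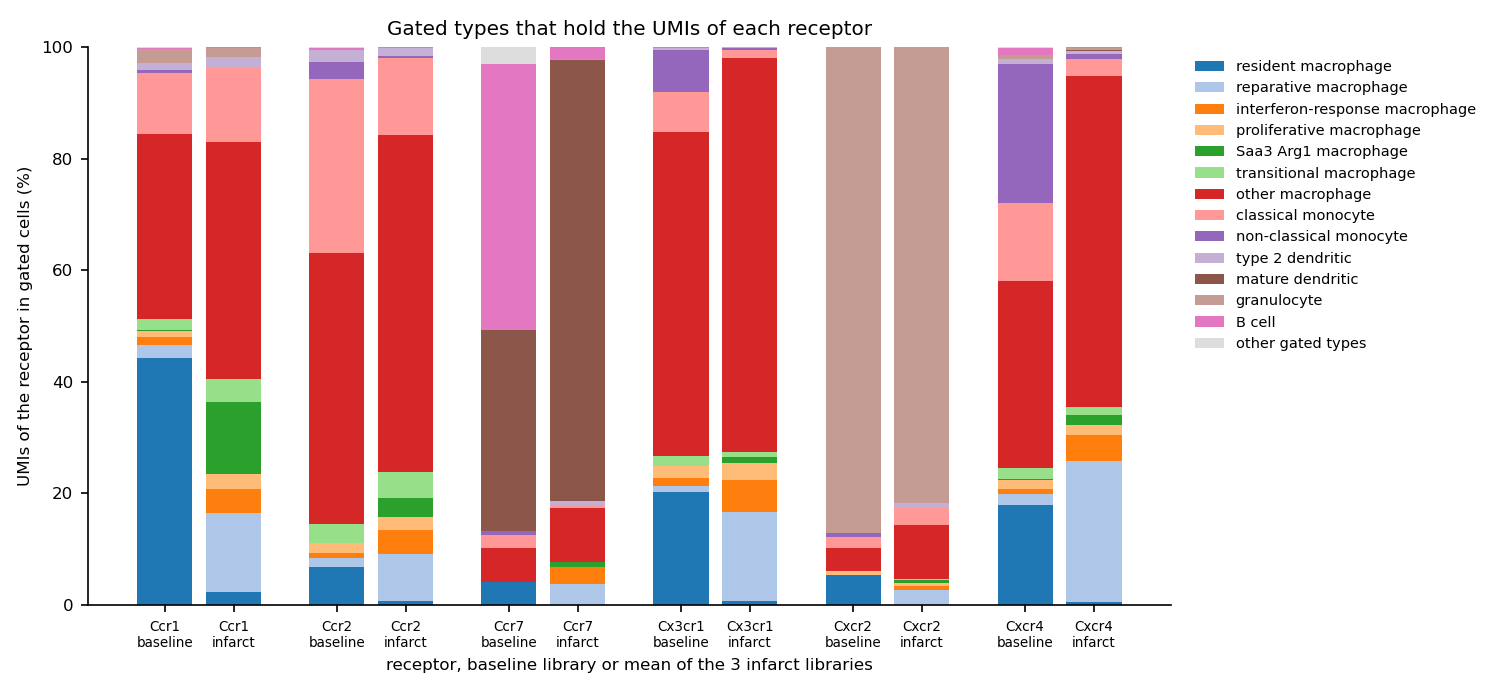
Share (percent) of each receptor's UMIs in gated cells that each cell type held, in baseline and as the mean of the infarct libraries. Macrophages of the resident gate held 44.3% of Ccr1 in baseline and a mean of 2.25% in infarct, and B cells held 47.7% of Ccr7 in baseline.

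The second question was how the receptors differed between infarct and baseline. With 1 baseline library there was no test, and a value was called past 2-fold when the ratio of the infarct mean to baseline exceeded 2 in either direction and all 3 infarct libraries lay on the same side. Summed over all cells, none of the 5 receptors with at least 10 CPM was past 2-fold, where 8.04% of 7876 genes were. Ccr1 stood at 58 CPM in baseline and 123, 73.8 and 84 CPM in infarct (log2 ratio of the infarct mean 0.69). Cx3cr1 stood at 455 CPM and 549, 616 and 641 CPM (log2 0.41). Cxcr4 stood at 177 CPM and 229, 295 and 243 CPM (log2 0.53). All 3 receptors were above baseline in every infarct library. Ccr7 stood at 7.28 CPM and 18.6, 11.2 and 9.56 CPM (log2 0.85), and Cxcr2, below 10 CPM, at 4.08 CPM and 2.92, 1.94 and 3.23 CPM (log2 -0.60). For Ccr2 the direction depended on the library and the scaling: 620.3 CPM in baseline lay between 771, 485 and 509 CPM in infarct, and the log2 ratio was -0.08 on the CPM scale and 0.21 with TMM scaling, which moved the median of all genes from -0.19 to 0.09. In sums over all cells, more or fewer cells of a type and more or less RNA per cell cannot be told apart.

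Within types, 40 pairs of receptor and type in 10 types had enough UMIs and cells, and 10 were past 2-fold, 9 higher and 1 lower in infarct. Pooled over the same types, 4.92% of all genes were past 2-fold as higher and 7.68% as lower. By type the share past 2-fold ran from 4.2% in non-classical monocytes to 42.6% in granulocyte-like cells. Ccr1 made up 6 of the 9 higher values. In classical monocytes it was 56.9 CPM (interval 51.2 to 63.1) in baseline and 321, 249.9 and 180.0 CPM in infarct, a log2 ratio of 2.14; 7.75% of all genes in that gate were past 2-fold. In transitional macrophages it was 54.9 CPM (interval 42.1 to 70.2) in baseline and 242, 173 and 127 CPM in infarct, a log2 ratio of 1.72; 10.7% of all genes in that gate were past 2-fold. In type 2 dendritic cells it was 57.6 CPM (interval 40.7 to 79) in baseline and 123, 147 and 176 CPM in infarct, a log2 ratio of 1.37; 13.7% of all genes in that gate were past 2-fold. All infarct libraries lay above the baseline interval in these 3 types, and the 3 values were past 2-fold under every setting tried. In resident macrophages Ccr1 was 77.3 CPM (interval 73.4 to 81.4) in baseline and 205, 85.1 and 190.1 CPM in infarct, a log2 ratio of 1.05, and the log2 ratio was 0.83 without replicate 1 and 0.91 without replicate 3; 7.63% of all genes in that gate were past 2-fold. In proliferative macrophages it was 31.4 CPM (interval 22.4 to 43) in baseline and 55.3, 50.8 and 106 CPM in infarct, a log2 ratio of 1.17, 0.83 on thinned cells, 0.79 as a mean over cells and 0.75 without replicate 3; 11.9% of all genes in that gate were past 2-fold. In non-classical monocytes it was 4.53 CPM (interval 2.73 to 7.07) in baseline and 70.4, 11.8 and 6.77 CPM in infarct, a log2 ratio of 2.71, from 19, 4 and 3 infarct UMIs, and it came to 1.03 without replicate 1; 4.2% of all genes in that gate were past 2-fold. In other macrophages, the largest class, Ccr1 was 47.4 CPM (interval 44.6 to 50.3) in baseline and 86.9, 50.4 and 62.4 CPM in infarct, a log2 ratio of 0.49, within 2-fold.

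Ccr2 went in opposite directions in different gates. In resident macrophages it was 119 CPM (interval 114 to 124) in baseline and 602, 177 and 233 CPM in infarct, a log2 ratio of 1.50, higher in infarct, and without replicate 1 the log2 ratio was 0.78. The 7 classical monocyte markers summed to 60.2 CPM in baseline and 179.5, 89.4 and 109 CPM in infarct in the same gate, so that they moved with Ccr2, and their part in it was not tested. In non-classical monocytes Ccr2 was 242 CPM (interval 228 to 258) in baseline and 704, 524 and 417 CPM in infarct, a log2 ratio of 1.18, and 0.96 without replicate 1. In reparative macrophages it was lower, at 470.2 CPM (interval 431 to 512) in baseline and 281, 179 and 198 CPM in infarct, a log2 ratio of -1.10, where 8.27% of all genes in that gate were past 2-fold. This ratio was -0.97 without replicate 2 and -0.93 with TMM scaling, so that all 3 Ccr2 values past 2-fold fell inside it under some setting. The classical monocyte markers were there 287 CPM in baseline and 166, 138 and 155 CPM in infarct. The baseline value of reparative macrophages rested on 69 cells. In classical monocytes, the type with the most Ccr2, the level was 1638 CPM (interval 1607 to 1670.2) in baseline and 1889.6, 1684 and 1623 CPM in infarct, a log2 ratio of 0.08, so baseline lay within the range of the infarct hearts.

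Cxcr4 was past 2-fold in interferon-response macrophages under every setting tried. It was 96.5 CPM (interval 76.7 to 119.8) in baseline and 199, 242 and 219.7 CPM in infarct, a log2 ratio of 1.19; 14.4% of all genes in that gate were past 2-fold. Other and reparative macrophages were just inside 2-fold. In other macrophages Cxcr4 was 143 CPM (interval 138 to 148) in baseline and 268, 318 and 256 CPM in infarct, a log2 ratio of 0.97; 7.15% of all genes in that gate were past 2-fold. In reparative macrophages it was 161 CPM (interval 138 to 186) in baseline and 295, 320.4 and 286 CPM in infarct, a log2 ratio of 0.90. In all of these gates the 3 infarct hearts lay above the baseline interval. Over all macrophages together Cxcr4 was 124 CPM in baseline and 248, 304 and 243 CPM in infarct, past 2-fold beside 9.4% of all genes, and log2 0.99 without replicate 2. Cx3cr1 was within 2-fold in every type compared. The nearest to it was in reparative macrophages, 248 CPM (interval 219.8 to 279) in baseline and 465, 472 and 465 CPM in infarct, a log2 ratio of 0.92. In classical monocytes Cx3cr1 was lower in every infarct heart, 324 CPM (interval 309.9 to 338) in baseline and 184, 155 and 284 CPM in infarct, a log2 ratio of -0.64. The infarct hearts were also all below baseline in type 2 dendritic cells (log2 ratio -0.57) and transitional macrophages (log2 ratio -0.29), in each with 1 heart inside the baseline interval.

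**Figure D3:**
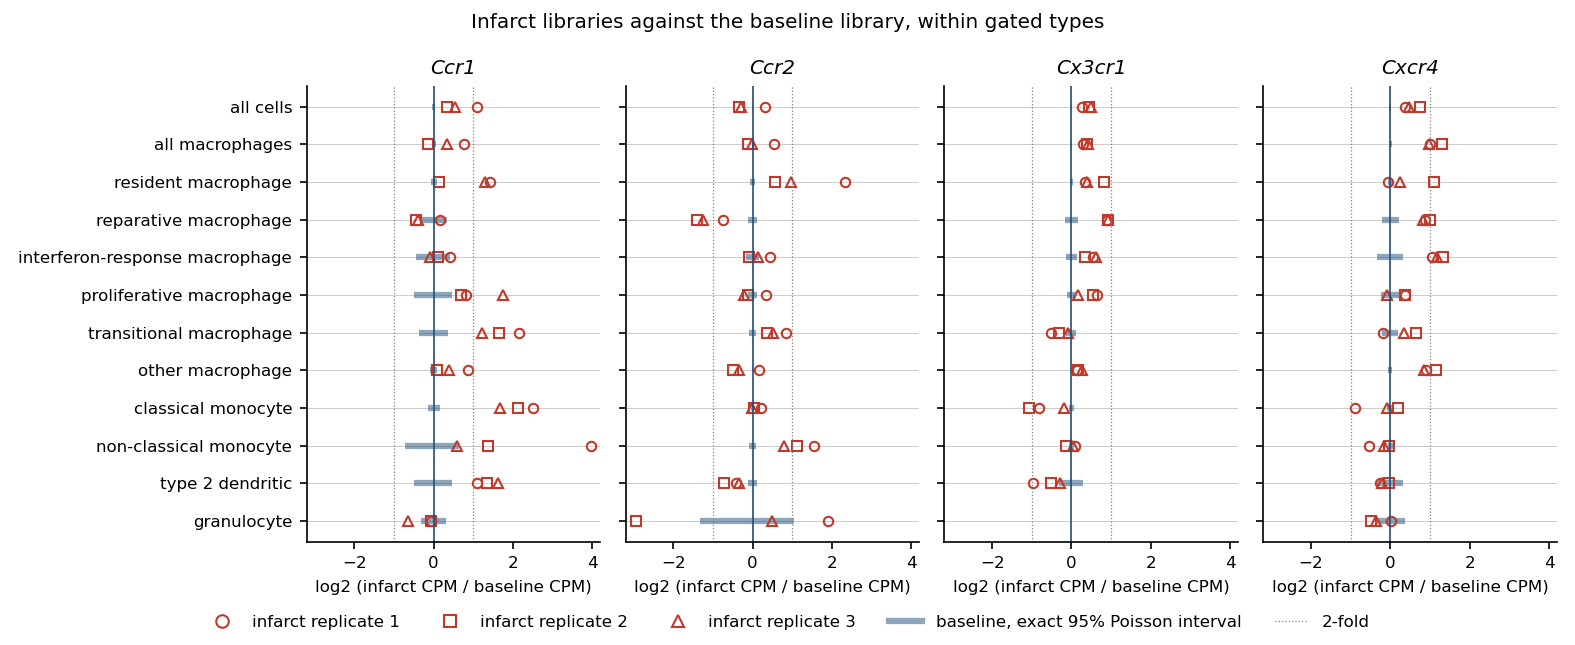
Log2 ratio of each infarct heart to the baseline library for Ccr1, Ccr2, Cx3cr1 and Cxcr4, over all cells, all macrophages and within marker-gated types. Each infarct heart has 1 point, and lines mark 2-fold. The log2 ratio of the infarct mean, which is not drawn, was 2.14 for Ccr1 in classical monocytes and -1.10 for Ccr2 in reparative macrophages.

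Since Ccr2 peaked in monocytes and Cx3cr1 in macrophages, the macrophages were split by both receptors cell by cell. All cells were thinned to 2000 UMIs, so that depth did not set the classes, and cells with no UMI of a gene may still express it. Of all macrophages, a UMI of both receptors was found in 13.9% in baseline and 29.2%, 24.8% and 26.9% in infarct. Ccr2 alone was found in 10.8% in baseline and 18.7%, 12% and 12.3% in infarct. Cx3cr1 alone was found in 36.3% in baseline and 29.5%, 39.3% and 35.8% in infarct. Cells with both were 1.12 times the number expected from independent occurrence in baseline and 1.04, 1.05 and 1.1 times in infarct. UMIs of both receptors were thus not found together less often than expected. Whether single cells expressed both cannot be read from these counts, since the background in infarct, given below, is not known. Taken singly, Cx3cr1 UMIs were in 50.3% of thinned macrophages in baseline and 58.7%, 64.1% and 62.7% in infarct (unthinned 70.4% and 82.5%, 88.5% and 85.4%). Ccr2 UMIs were in 24.7% and 47.9%, 36.9% and 39.2% (unthinned 32.9% and 64.6%, 55.8% and 57.8%), while the Ccr2 level of macrophages was 450.3 CPM in baseline and 656, 412 and 449 CPM in infarct. Share and level did not go the same way in replicates 2 and 3, and no order between the groups is read from the Ccr2 share. As a background, thinned B cells of baseline, which should lack both, held a Ccr2 UMI in 4.11% and a Cx3cr1 UMI in 8.22% of 73 cells, at a median depth of 3345 UMIs against 6917 in macrophages. The source of the receptor UMIs in B cells was not tested. Of the 13, 4 and 19 B cells of the infarcts, 4, 1 and 2 held a Ccr2 UMI and 1, 3 and 2 a Cx3cr1 UMI after thinning. These shares, at most 30.8% for Ccr2 and 75% for Cx3cr1, reached into the range of the macrophages or above it and rest on few cells, so that the background in infarct is not known.

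**Figure D4:**
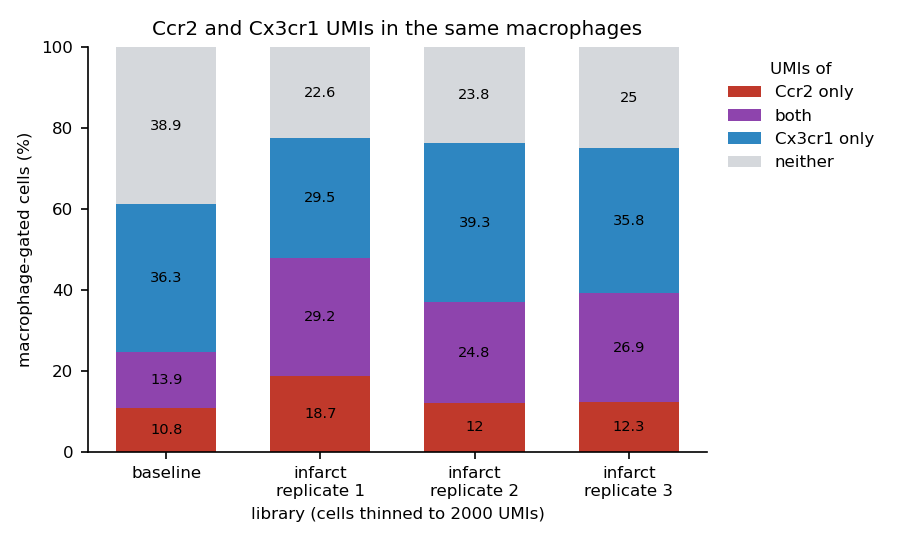
Share (percent) of macrophages, each thinned to 2000 UMIs, with UMIs of both receptors, of Ccr2 alone, of Cx3cr1 alone and of neither, in baseline and in each infarct heart. Cells with both made up 13.9% in baseline and 24.8% to 29.2% in infarct.

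What else differed between the infarct macrophages with Ccr2 alone and those with Cx3cr1 alone was tested over 9873 genes, leaving aside the 2 receptors that defined the cells. Of these genes 834 passed (8.45%), 486 higher (4.92%) and 348 lower (3.52%) in the Ccr2 cells. The cells were counted from the same hearts, so each heart gave both sums. The Ccr2 cells carried more Ly6c2 and Plac8, both of the monocyte list, than the Cx3cr1 cells. Ly6c2, the Ly6C surface antigen of classical monocytes, was 102 ± 27.4 CPM in the Ccr2 cells against 5.23 ± 0.876 CPM in the Cx3cr1 cells (log2 fold change 4.28, SE 0.146, adjusted p 2.41e-14). Plac8 (log2 fold change 3.80), the calcium-binding S100a4 (2.16) and S100a6 (1.83), the fibronectin gene Fn1 (2.27), arginase Arg1 (2.67) and the acute-phase gene Saa3 (2.36) were also higher, as were the chemokines Ccl6 (2.22) and Ccl9 (1.88), Gda (2.06), Add3 (1.80) and Napsa (1.78). Saa3 varied widely, at 1001 ± 1051 CPM in the Ccr2 cells, and its sign changed to -0.10 when all macrophages without a Ccr2 UMI were the comparator. On the other side, Fcrls, an Fc receptor-like gene, was 373 ± 140.4 CPM in the Ccr2 cells against 1108 ± 118 CPM in the Cx3cr1 cells (log2 fold change -1.61, SE 0.112, adjusted p 1.6e-09). Igf1, a growth factor (-1.14), Gas6, which bridges dying cells to their receptors (-1.15), the scavenger receptor Stab1 (-1.08), Tmem119 (-1.03), Gpr34 (-1.01) and Ccl8 (-1.23) were also lower in the Ccr2 cells, as were Olfml3 (-1.23), Pmepa1 (-1.40), Lhfpl2 (-1.26), Col14a1 (-1.16) and Ms4a14 (-1.08). The rule for naming these 24 genes asked for 1 direction in all hearts.

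By gene lists, all 7 MHC class II genes, which present antigen to helper T cells, were higher in the Ccr2 cells, with a median log2 fold change of 1.31 against -0.01 over all genes. H2-Ab1 was 5439 ± 347 CPM in the Ccr2 cells against 2193 ± 246 CPM in the Cx3cr1 cells (log2 fold change 1.33, SE 0.0705, adjusted p 2.31e-11). Cd74, the invariant chain, was higher by log2 1.21 and Ciita, the transactivator of these genes, by log2 1.41. Of 8 monocyte genes 7 were higher (median 2.82), and 4 of the 8 were markers used for the gates. All 3 C1q genes, themselves gate markers, were lower (median -0.63), as were 6 of 9 reparative genes (median -0.64). Of 7 inflammatory genes Il1b (0.97) and Ccl9 were higher, and of 7 resident genes Lyve1 was higher (1.45) and Mrc1 lower (-0.64). Of the other receptors, Ccr1 was 115 ± 37 CPM in the Ccr2 cells against 53.9 ± 11.7 CPM in the Cx3cr1 cells (log2 fold change 1.10, SE 0.0987, adjusted p 6.45e-08), and it was higher in the Ccr2 cells of all 3 hearts. Cxcr4 was 239 ± 57.9 CPM in the Ccr2 cells against 325 ± 20.6 CPM in the Cx3cr1 cells (log2 fold change -0.45, SE 0.103, adjusted p 0.0042). Ccr7 and Cxcr2 were too low to be tested.

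The 2 classes did not hold the same gates. Of the Ccr2 cells 6.06% ± 2.06 (SD, n = 3) were transitional and 8.38% ± 7.39 Saa3 Arg1 macrophages, against 0.15% ± 0.0638 and 1.25% ± 1.05 of the Cx3cr1 cells. Reparative macrophages were 14.2% ± 0.924 of the Ccr2 cells and 22.2% ± 0.43 of the Cx3cr1 cells, and other macrophages were the main gate of both, at 62.2% ± 5.22 and 67.1% ± 1.61. Within the other macrophage gate alone, an alternative added after the data had been seen, 626 of 9109 genes passed (6.87%). The 24 genes named above passed in the same direction there, with a log2 fold change of 2.73 for Ly6c2 and -1.28 for Igf1. They had been chosen in the split of all macrophages, which includes these same cells, so their passing again is not independent support. All 7 MHC class II genes were again higher (median 1.37). Ccr1 was higher by log2 0.90 in the Ccr2 cells of that gate. Cxcr4 did not pass within it (log2 -0.32, adjusted p 0.0227 by edgeR).

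**Figure D5:**
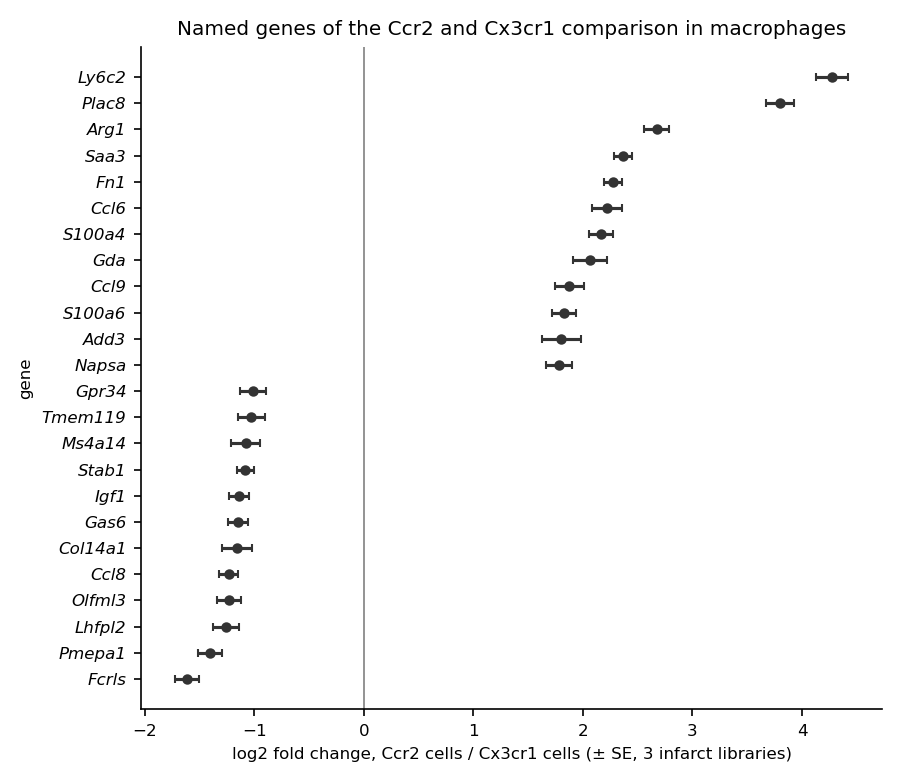
Log2 fold change with its standard error of the 24 named genes between infarct macrophages with Ccr2 UMIs alone and with Cx3cr1 UMIs alone, positive where higher in the Ccr2 cells. Ly6c2 stood at 4.28 and Fcrls at -1.61.

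Ligands of Ccr1, Ccr2 and Cxcr2 were made by some of the same cells. The listed ligands of Cx3cr1, Ccr7 and Cxcr4 stayed below 10 CPM over all infarct cells. The infarct means were 0.304 CPM for Cx3cl1, 0.0223 for Ccl19, 0.0885 for Ccl21a and 2.2 for Cxcl12. Over the 12 infarct types, 34 of 165 tested pairs of ligand and type passed as higher and 74 as lower, beside the shares of all genes given above for each type. Ccl6 and Ccl9, ligands of Ccr1, were highest in Saa3 Arg1 macrophages (4729 CPM and 1367 CPM), the gate that was among the highest in Ccr1 itself. Ccl12, a ligand of Ccr2, was highest in interferon-response macrophages (2082 CPM). Ccl2, the main Ccr2 ligand, was spread over proliferative (511 CPM), interferon-response (496 CPM) and resident macrophages (489 CPM) and classical monocytes (449.8 CPM). Granulocyte-like cells, which held Cxcr2, also led in its ligand Cxcl2 (6231 CPM) and in Ccl3 (1791 CPM). Type 2 dendritic cells had 0 of 14 tested ligands higher and 11 lower, with a median log2 fold change of -2.67 against -0.14 over all genes, and Ccl5 was highest in mature dendritic cells (8029 CPM). Between infarct and baseline over all cells, 2 of 10 ligands with at least 10 CPM were past 2-fold, both higher, with a list median of log2 0.16 against -0.19 over all genes. Ccl5 was 14.7 CPM in baseline and 103 ± 13.4 CPM in infarct. Ccl8 was 48.5 CPM in baseline and 275 ± 167 CPM in infarct. Ccl2 was 314 CPM in baseline and 249 ± 43.6 CPM in infarct and Ccl12 249 CPM in baseline and 390.2 ± 142 CPM in infarct, within 2-fold.

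Among the 17 other chemokine receptors, Ccrl2, an atypical receptor that does not signal through G proteins, was 91.5 CPM in baseline and 202 ± 30.2 CPM in infarct, past 2-fold, and highest in granulocyte-like cells (1902 CPM). Over the types, 12 of 92 tested pairs of these receptors and types were higher and 25 lower, beside 9.39% and 10.3% of the tests over all genes. Of 15 genes that act below the receptors, such as G protein subunits, receptor kinases, arrestins and RGS proteins, 2 were past 2-fold over all cells, beside 8.04% of all genes. Both were lower, the receptor kinases Grk3 (log2 -1.31) and Grk5 (log2 -1.24). In the split of macrophages Grk5 and Grk6 were higher, and Arrb2, Rgs10 and Elmo1 lower, in the Ccr2 cells, 2 and 3 of 15 beside 4.92% and 3.52% of all genes, with a list median of log2 0.06.

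Genes whose levels ran most like each receptor's were ranked by Pearson's r of log2(CPM + 1) over 36 sums, 12 types in 3 hearts, among 7948 genes of at least 20 CPM in some type. Sums of 1 heart share a library, so these values are descriptions without a test. For Ccr2 the closest were Tifab (r = 0.926), Clec4a3 (r = 0.887), Dnajb11 (r = 0.855). For Cx3cr1 they were Lair1 (r = 0.946), Cd180 (r = 0.928), P2ry6 (r = 0.923). For Ccr1 they were Card19 (r = 0.916), Ralb (r = 0.905), Notch1 (r = 0.892). For Cxcr4 the closest genes reached lower values, among them Lst1 (r = 0.779) and Gm26532 (r = 0.757). For Ccr7 they were Tmod2 (r = 0.944), H2-Eb2 (r = 0.938), Lad1 (r = 0.938), and for Cxcr2 Mrgpra2b (r = 0.985), Abca13 (r = 0.98), Amer2 (r = 0.978), values that rest on the contrast of 1 type with the others. Between Ccr2 and Cx3cr1 themselves r was 0.689 over the same sums, and mature dendritic and granulocyte-like cells were low in both.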

How the data were processed

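CSF1R-EGFP+ Ly6G- cells of 1 baseline and 3 infarct libraries were measured by 10x Genomics 3′ single-cell sequencing. The deposited values are UMI counts per gene and cell, made by the authors with Cell Ranger against mm10; the file headers give version 3.1.0 and the submitters' processing notes 3.0.1. Each infarct library was 1 mouse, and group and replicate came from the labels.

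From these counts 41533 cells entered, those between 500 and 40000 UMIs that had more than 200 genes detected. Cells of at least 2000 UMIs were thinned to that depth and gated on 69 markers, each gate needing at least 2 of its markers and 3 UMIs; 571 cells met several gates and 3092 none. The marker lists were written first, and the gate rule was set after their distributions had been seen. Raw counts were summed per library and type, in types with at least 20 cells in each infarct library. Sums were tested with edgeR 4.0.16 (R 4.3.3; TMM scaling, filterByExpr, quasi-likelihood F test, library as block, Benjamini-Hochberg adjustment over all genes, threshold 0.01). The block was the heart itself, from which both sums of a comparison came. The tests were checked on simulated counts. DESeq2 1.42.0 served as an alternative. Infarct was not tested against baseline, which had 1 library.

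The named genes were the 6 receptors; for each, the 3 genes of highest r; and up to 12 genes on each side of the split of macrophages with at least 50 CPM, past the threshold and in 1 direction in all hearts. Members of fixed lists were named beside their counts. Some genes that this rule would name are not reported here. The 6 receptors and all lists were chosen with earlier results of these data known. The other alternatives were scaling, low-count filter, comparator, gate and thinning depth, mitochondrial content, leaving out each heart, and doublets: Scrublet in scanpy 1.11.5 called 2.18% of baseline cells and 0 in infarct, so the main sums kept all cells and the 8.1% to 8.63% of highest score were left out as an alternative. The comparison within the other macrophage gate was added after seeing the data.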

Additional observations from a re-analysis of the deposited data

Results flagged for a closer look

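For a pair of receptors, the infarct hearts lay on opposite sides of the baseline library in different gates, every heart above its counting interval in some and every heart below that interval in others. The difference between gates was not tested, since baseline was 1 library.

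Ccr2 had a log2 ratio of the infarct mean to baseline of 1.50 in resident macrophages, 1.18 in non-classical monocytes and 0.58 in transitional macrophages. In reparative macrophages the Ccr2 ratio was -1.10, and in type 2 dendritic cells it was -0.48. The resident and reparative gates held 2448 and 69 cells in baseline.

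Cx3cr1 had log2 ratios of 0.92 in reparative, 0.54 in resident, 0.50 in interferon-response, 0.47 in proliferative and 0.19 in other macrophages, and of -0.64 in classical monocytes. The ratio was also negative in every heart in type 2 dendritic cells, at -0.57, and in transitional macrophages, at -0.29, with 1 heart inside the interval in each. None of the Cx3cr1 ratios was past 2-fold.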

How the results depend on the processing

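Without the replicate block, that is with the heart not a term, 33 of the 72 pairs of receptor and type passed in place of 54, and 284 genes differed between Ccr2 and Cx3cr1 macrophages in place of 834. That count of genes was 324 by the DESeq2 Wald test, 461 on cells thinned to 1000 UMIs and 261 to 954 with 1 heart left out, lowest without replicate 3; within the other macrophage gate it was 626. With 1 heart left out, 51 to 55 of the 72 pairs and 4 to 9 of the 66 steps between neighbouring types passed, against 8 steps in all hearts, and 4 without replicate 3. 20 of 24 named genes of the split passed in every setting.

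With macrophages and monocytes as the only comparator, Ccr7 in interferon-response macrophages turned to log2 1.92 and in other macrophages to 0.0261, and Cxcr2 in other macrophages to 0.0389. This comparator holds no mature dendritic or granulocyte-like cells. Saa3 turned to log2 -0.10 against all macrophages without a Ccr2 UMI, and the cause was not tested.

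No paired analysis was possible for infarct against baseline because baseline was 1 library. Over all cells, the log2 ratio of Ccr2 was 0.33 as a mean over cells and -0.32 to 0.05 with 1 heart left out. That of Cx3cr1 was 0.69 with TMM scaling and 0.22 with the infarct types weighted by baseline shares; that of Ccr7 was 0.26 with these weights, and that of Cxcr4 was 0.82 with TMM scaling. Of 10 ratios past 2-fold within types, 4 stayed past it in every setting. Depth limited Ccr7 and Cxcr2 outside their main types, where sums held few or 0 UMIs.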

Other observations

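The baseline library held 5 mature dendritic cells, too few for a comparison, and these gave 120 Ccr7 UMIs, a level of 2499.6 CPM with an exact 95% Poisson interval of 2072 to 2989. The 30 granulocyte-like cells of baseline gave 128 Cxcr2 UMIs, a level of 1491 CPM with an interval of 1244 to 1773. The intervals cover counting error only.

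Cxcr3, the receptor of interferon-induced chemokines, stayed below 10 CPM in baseline, at 2.14 CPM over all cells, and was 11.8 ± 2.04 CPM in infarct (SD, n = 3). Cxcl12, the ligand of Cxcr4, was 14.7 CPM in baseline and 2.2 CPM in infarct. Neither was compared as past 2-fold, since the mean of infarct and baseline did not reach 10 CPM.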
